A study of Mus musculus with 3 samples.

Results

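The basal and wound keratins are the intermediate filament genes Krt5, Krt14, Krt15, Krt6a, Krt6b, Krt16 and Krt17. They were chosen by gene name, not by a threshold on their values, and all 7 were found among the 31053 genes of the deposited table. Their transcripts were followed in keratinocytes, the cells of the squamous epithelium that meets the colon's columnar lining at the mouse anus. Distal colon and anus were taken from C57Bl/6 mice, bought at 6 weeks of age. The day 0 mice were untreated. The mice of day 7 and day 42 had 3% dextran sulfate sodium (DSS), which damages the colonic epithelium, in their water for 6 days from day 0, and their labels call the days colitic and recovered. Tissue of 5 mice was pooled for each day, dissociated with trypsin, depleted of dead cells and made into 1 single-cell 3′ library per day. There are thus no replicates, differences between days have no test, and the day, the pool and the library cannot be told apart.

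Keratins form obligate pairs of an acidic type I and a basic type II chain, which assemble into the filaments that give epithelial cells their strength. Krt5 (type II) and Krt14 (type I) are the pair of the basal layer of stratified epithelia, and Krt15 is a further type I chain of basal cells, used as a marker of hair follicle stem cells. Krt6a and Krt6b (type II) and Krt16 and Krt17 (type I) are made in hair follicles, in oral and anal mucosa and in other sites of friction, and are induced in interfollicular epidermis at the edge of a wound.

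All members lie on the minus strand of 2 keratin gene clusters (GRCm38, GENCODE M21). The type II genes are on chromosome 15: Krt5 at chr15:101707070-101712898, Krt6a at chr15:101689910-101694307 and Krt6b at chr15:101676023-101680287, with 9 exons each. The type I genes are on chromosome 11: Krt14 at chr11:100203162-100207548, Krt15 at chr11:100131758-100135928, Krt16 at chr11:100246091-100248902 and Krt17 at chr11:100256217-100261029, with 8 exons each. The genes are close relatives, so the ends of the transcripts that a 3′ library reads were compared. The transcripts of Krt6a and Krt6b were identical at 93.1% of aligned bases, but at 80.2% within the last 500 bases. No 60-base window of the last 500 bases of Krt5, Krt15, Krt6a or Krt6b was found in another gene. In Krt16, 50 of 441 such windows (11.3%) also occurred in the predicted gene Gm11597. In Krt14 and Krt17, 23 of 441 windows (5.22%) were shared between the pair, so a read that lies wholly inside such a window cannot be given to either gene. The longest run in common is 71 bases of coding sequence, which ends 319 bases from the 3′ end of the Krt14 transcript and 312 bases from that of Krt17. It is shown because Krt14 and Krt17 moved apart in several comparisons that follow:
Krt14 and Krt17 shared run: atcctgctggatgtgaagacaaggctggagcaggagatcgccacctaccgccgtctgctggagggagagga

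Of the members, Krt5 has a usable entry in the RefSeq promoter table (GRCm38.p6). The 250 bases before its start (chr15:101712906-101713155, minus strand) are shown for the basal keratin that was less than 2-fold different in all keratinocytes in each comparison of days:
Krt5 promoter: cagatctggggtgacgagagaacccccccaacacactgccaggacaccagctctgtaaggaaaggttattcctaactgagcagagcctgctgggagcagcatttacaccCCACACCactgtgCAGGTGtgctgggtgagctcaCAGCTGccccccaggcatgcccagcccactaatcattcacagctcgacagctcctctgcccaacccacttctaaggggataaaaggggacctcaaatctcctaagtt
Capitals mark 1 CACC box (CCACACC, a motif bound by Klf factors) and 2 E-boxes (CANNTG). Both strands were searched. Among 32851 promoters, windows of this length hold the CACC box in 6.52% and an E-box in 66.2%. The letters TGANTCA (AP-1, in 6.75% of promoters) and TATAAA (in 12.4%) are not in this window.

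The authors' cell table names 10 clusters keratinocytes, with 3316, 9035 and 7970 cells on days 0, 7 and 42, out of 11037, 14376 and 11667 cells in all. Median unique molecular identifiers (UMIs, 1 per captured transcript) per keratinocyte were 9168, 11481 and 6542. Cluster 26 had 12, 20 and 3 cells and was left out of the comparisons by cluster, which needed 50 cells on both days and so covered 9 clusters. The mix of clusters differed between libraries. Cluster 3 is called dividing-like after its leading genes Ube2c, Birc5 and Top2a, and made up 8.11, 21.9 and 12.2% of keratinocytes. Cluster 5, led by Psca, Ltf, Krt19 and Krt13, made up 2.62, 1.79 and 27.0%, and cluster 1, led by S100a4, Calcb and Stmn2, 13.4, 6.23 and 38.2%. Clusters 9 (H19, Smoc2, Col17a1), 8 (Cst6, Defb6, Krt79) and 17 (Cxcl14, Postn, Tchh and the inner root sheath keratins Krt25, Krt27 and Krt71) are called by number. Cluster 4 (Krt10, Krt1, Krtdap) is epidermal suprabasal-like, and cluster 13 (Scd1, with the immunoglobulin genes Igkc and Igha among its leading genes) is sebaceous-like. Cluster 12 stands apart: its median was 1948, 1672.5 and 1010.5 UMIs, its leading genes included haemoglobin genes, the inner root sheath keratins Krt25 and Krt71, S100a9 and Retnlg, and it was left without a name. Its 3 inner root sheath markers summed to 105004, 28.7 and 0 CPM on days 0, 7 and 42, its 5 neutrophil markers to 203, 6405 and 498 CPM, and its median mitochondrial share was 0.179, 5.00 and 0.225%. Its marker content thus differed between days, and its ratios may not compare like cells. In all, 139 cell barcodes occurred in 2 libraries, 46 of them among keratinocytes.

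The members were mainly keratinocyte transcripts on every day. Their UMIs made up 1.10%, 1.86% and 2.59% of all keratinocyte UMIs on days 0, 7 and 42, while all keratins together made up 2.13%, 2.44% and 3.39%. Between 89.0% and 98.4% of each member's UMIs in a library lay in cells named keratinocytes. Background was read in 5 classes that should lack these genes (fibroblasts, endothelial cells, lymphatics, macrophages/APCS and T cells). Per cell, its median was 0.231% to 4.85% of the keratinocyte level. Type I members held 2.43, 2.26 and 1.90 UMIs for every type II UMI on days 0, 7 and 42.

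Levels are given as CPM, the UMIs of a gene scaled to all UMIs of the cells in question, which 3′ counting makes independent of transcript length. Days are compared as log2 ratios with 10 CPM added to both values, and a difference of at least 2-fold is called. At day 7 against day 0, 3 of the 7 members were at least 2-fold higher in all keratinocytes (Krt14, Krt6a and Krt16), where 1.38% of 8378 genes were. Krt15 was at least 2-fold lower, as were 1.17% of genes. Day 42 had 4 members at least 2-fold above day 0 (Krt14, Krt6a, Krt6b and Krt16), where 2.79% of 8401 genes were. No member was at least 2-fold lower, where 2.39% of genes were. Compared with day 7, Krt15 and Krt6b were higher and Krt17 was lower on day 42, where 2.09% and 1.72% of 8139 genes were. Any 2 of these comparisons share a library. The median log2 ratio of the members was 0.93, 1.62 and 0.58 in the 3 comparisons, and that of all genes was -0.01, -0.03 and -0.04. With equal weight to each cluster, 1 member (Krt16) was at least 2-fold higher at day 7 and 0 at day 42 against day 0. At day 42 against day 7, 0 members were at least 2-fold higher with equal weight.

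**Figure D1:**
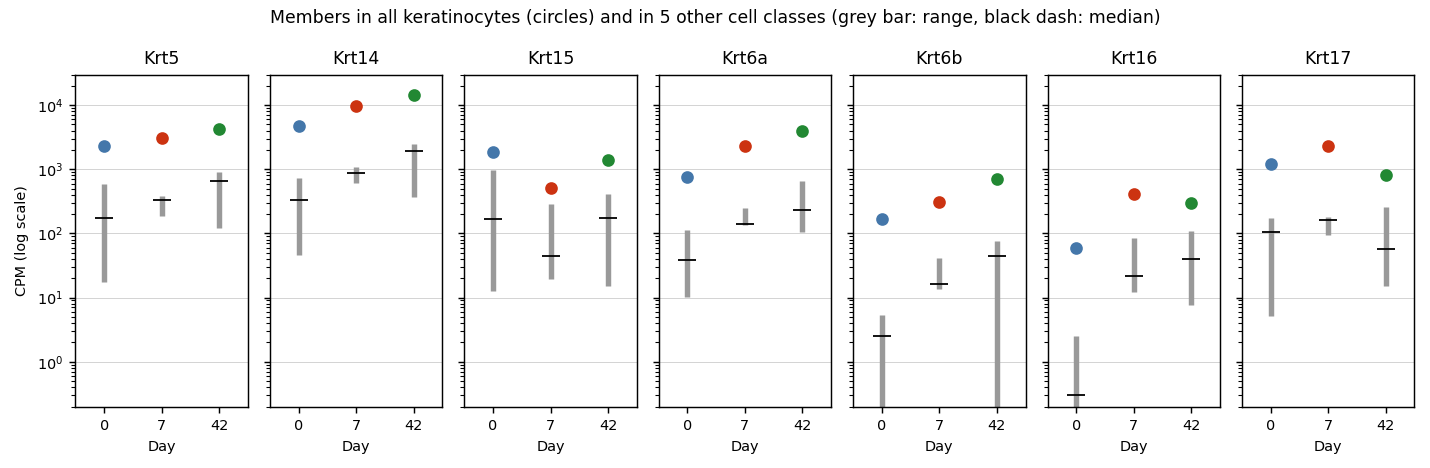
Level of each member in all keratinocytes (circles, CPM on a log axis) by day, with 95% Poisson intervals smaller than the symbols, beside the range (grey bar, cut at the axis foot where a class is at 0) and median (black dash) over 5 other cell classes. Krt14 goes from 4685 to 14455 CPM, Krt15 is lowest on day 7 and Krt17 is highest on day 7.

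Krt5 was less than 2-fold different in all keratinocytes in each comparison. It stood at 2269, 3123 and 4319 CPM on days 0, 7 and 42, and the median of the background classes at 172, 333 and 668 CPM. The log2 ratio was 0.46 (95% counting interval 0.44 to 0.47) at day 7 and 0.93 (95% counting interval 0.91 to 0.94) at day 42 against day 0. With median-of-ratios size factors the day 42 ratio was 1.13, past 2-fold, as it was under 2 of 15 alternatives. With equal weight to each cluster it was 0.40, with a fixed cluster mix 0.51 and in thinned cells 0.63. Intervals here and throughout cover counting error alone, not the variation between mice. In cluster 9 the level was 5045, 4561 and 4561 CPM, the highest of the 9 clusters on days 0 and 7. In cluster 5 it was 1973, 4229 and 5089.5 CPM, lower than in clusters 1, 3, 9 and 17 on day 0 and the highest of all on day 42. Cluster 5 was the 1 cluster in which Krt5 was at least 2-fold higher on day 7, with a log2 ratio of 1.10. On day 42 against day 0 the ratio was 1.36 in cluster 5 and 1.20 in cluster 12, whose contents differ by day. Across the remaining clusters the log2 ratio lay between -0.41 (cluster 17) and 0.51 (cluster 4). The lowest levels were in the sebaceous-like cluster 13, at 425, 605 and 459.8 CPM, and in the suprabasal-like cluster 4, at 737, 1073 and 1051 CPM.

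Krt14, the type I partner of Krt5, was higher after DSS on both days. In all keratinocytes it stood at 4685, 9695 and 14455 CPM, with log2 ratios of 1.05 (95% counting interval 1.04 to 1.06) at day 7 and 1.62 (95% counting interval 1.61 to 1.63) at day 42 against day 0. The background median was 334, 877 and 1901 CPM and was itself higher on the later days. Cluster 5 had the highest Krt14 on days 7 and 42. Its level was 5395, 20536 and 19904 CPM, a log2 ratio of 1.93 at day 7 and 1.88 at day 42. Within it, the median cell held 3, 17 and 18 Krt14 UMIs per 1000 after each cell was thinned to 1000 UMIs. The 10 cells with most UMIs held 46.5% of the Krt14 UMIs of this cluster on day 0, where it had 87 cells. In the dividing-like cluster 3 the level was 6589, 13606 and 13074 CPM, and in cluster 1 it was 5839, 8124 and 14208 CPM. Cluster 3 had reached its later level by day 7, while cluster 1 was highest on day 42, with a log2 ratio of 1.28 against day 0. Cluster 9, which had the highest Krt14 on day 0, was nearly level at 9326, 10603 and 10746 CPM. In cluster 17 the values were 6204, 5261 and 4419 CPM, and the log2 ratios were -0.24 and -0.49. Krt14 was at least 2-fold higher in 4 of 9 clusters at day 7 (3, 4, 5 and 12) and in 4 at day 42 (1, 4, 5 and 12). In cluster 4 at day 42, Krt14 UMIs per cell exceeded those of day 0 by less than the background did. The call in all keratinocytes at day 7 held under 9 of 15 alternatives; the ratio was 0.59 without cluster 3 and 0.73 in thinned cells. At day 42 the ratio was 0.98 with equal weight to each cluster.

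Krt15 was the member that was lower at day 7. In all keratinocytes it stood at 1840.2, 502 and 1399 CPM on days 0, 7 and 42, so day 7 was low and day 42 lay between. The log2 ratio was -1.85 (95% counting interval -1.87 to -1.83) at day 7 against day 0 and 1.46 (95% counting interval 1.44 to 1.48) from day 7 to day 42. The call at day 7 held under each of the 15 alternative settings, which gave -1.97 to -1.59. At day 42 against day 7 the ratio was 0.87 with equal weight and 0.86 with a fixed cluster mix, both under 2-fold. The background median was 166, 43.8 and 173 CPM, also lowest on day 7. All 9 clusters had a lower level on day 7 than on day 0, 6 of them by at least 2-fold, and all 9 had a higher level on day 42 than on day 7, 3 of them by at least 2-fold.

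The size of the Krt15 difference depended on the cluster. In cluster 9, whose leading genes include the hemidesmosome genes Col17a1 and Dst, Krt15 stood at 3310.0, 342 and 2504 CPM. That is a log2 ratio of -3.24 at day 7 against day 0 and of 2.84 from day 7 to day 42. In cluster 5 it stood at 4589, 504 and 1108 CPM, with -3.16 at day 7 and -2.04 at day 42, both against day 0. Cluster 9 on day 42 was thus less than 2-fold from day 0, and cluster 5 was still at least 2-fold below it. In cluster 9 at day 7 against day 0, 6 of the 10 early response and dissociation stress genes were also at least 2-fold lower, with a median log2 ratio of -1.11, where 0.983% of all genes of that cluster were. Their part in the Krt15 difference was not tested. In the dividing-like cluster 3 the values were 2647, 548 and 1104 CPM, and in cluster 1 they were 3419.7, 1582 and 1981 CPM. In the suprabasal-like cluster 4 they were 464, 74.2 and 315 CPM. Clusters 17 and 13 differed little between days 0 and 7, with 2408, 2211 and 3015 and 218, 189.8 and 267 CPM. In CPM, the values of clusters 4 and 13 lay within the range of the background classes on each day. With background subtracted per cell, the cluster 4 ratio at day 7 against day 0 was -2.87, in place of -2.49. Cluster 17 therefore had the highest Krt15 of the 9 clusters on days 7 and 42, while cluster 5 had the highest on day 0.

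Single cells were also compared at equal depth. After thinning to 1000 UMIs, which left out 34, 468 and 91 shallower keratinocytes, a Krt15 UMI was found in 55.0, 27.3 and 47.5% of keratinocytes on days 0, 7 and 42. Without thinning the shares were 72.1, 55.1 and 69.4%. In the background classes, thinned alike, the median share was 4.27, 4.44 and 4.44%. In cluster 9 the thinned share was 80.5% (95% interval 77.1 to 83.6) on day 0, 22.1% (95% interval 19.6 to 24.8) on day 7 and 68.9% (95% interval 64.4 to 73.1) on day 42. The cell at the 90th percentile of cluster 9 held 11, 1 and 8 Krt15 UMIs per 1000, so cells with much Krt15 were rare on day 7. Of the UMIs of Krt14 and Krt15 together, Krt15 held 28.2, 4.93 and 8.82% in all keratinocytes. In cluster 5 this share was 46.0, 2.40 and 5.27%, and in cluster 9 26.2, 3.12 and 18.9%. In cluster 17 it was 28.0, 29.6 and 40.6%, the 1 cluster of 9 besides cluster 13 in which it was higher on day 42 than on day 0.

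**Figure D2:**
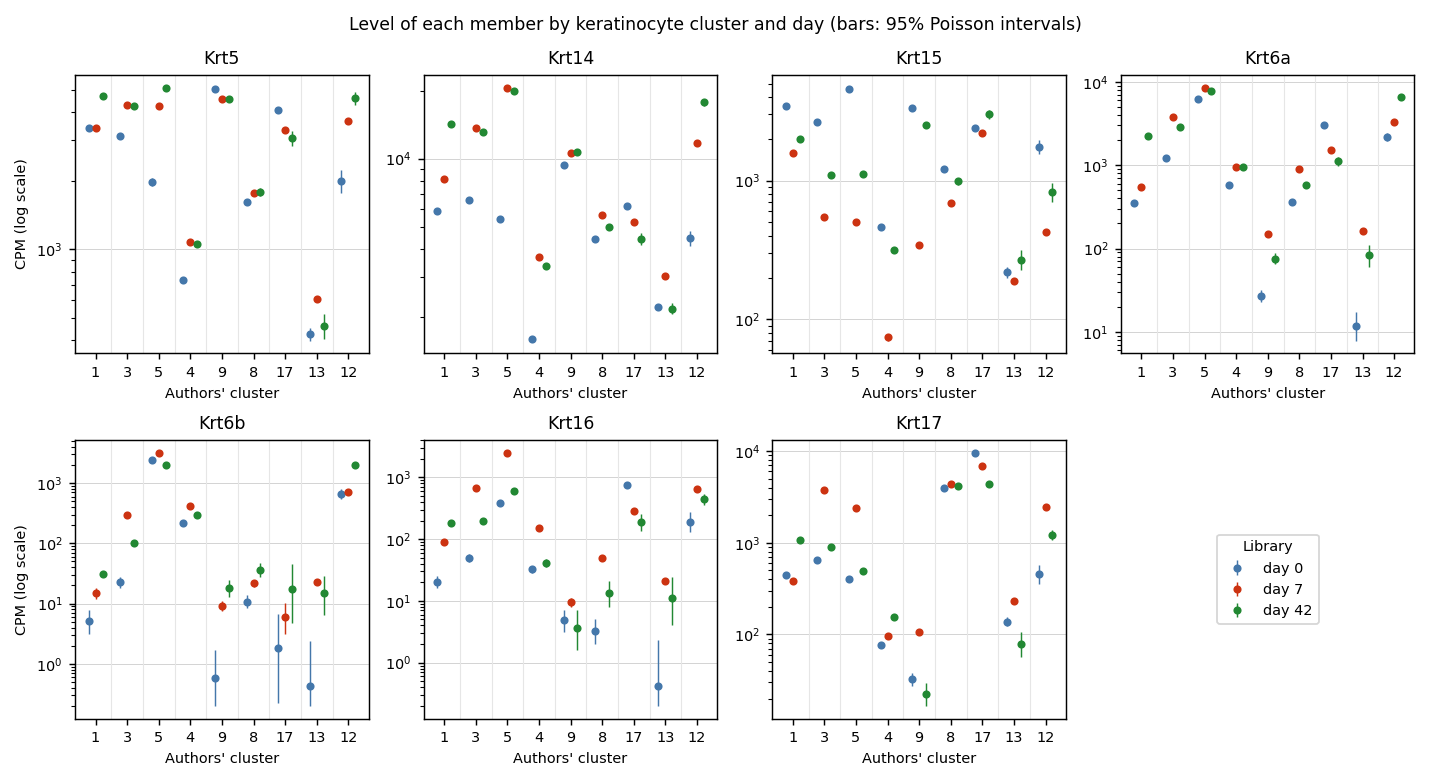
Level of each member (CPM, log axis) in the 9 keratinocyte clusters with at least 50 cells, with day as colour and 95% Poisson intervals as bars. Krt15 on day 7 lies below the other days in every cluster, Krt6a is highest in cluster 5 on each day, and Krt17 is highest in clusters 17 and 8 on each day.

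Krt6a, the more widely made of the Krt6 wound keratins here, was higher after DSS and more so on day 42. In all keratinocytes it stood at 765, 2276 and 3912 CPM, with log2 ratios of 1.56 (95% counting interval 1.54 to 1.58) and 2.34 (95% counting interval 2.32 to 2.36) against day 0. The background median was 38.0, 142 and 230.4 CPM. With equal weight to each cluster the ratios were 0.50 and 0.68, under the 2-fold call. Without cluster 3 the day 7 ratio was 0.63, and with a fixed cluster mix the day 42 ratio was 0.74. Each call held under 13 of 15 alternatives. From day 7 to day 42 the ratio was 0.78, and -0.01 with a fixed cluster mix. In that comparison 6 of 9 clusters had a lower level, 0 of them by 2-fold, and 3 a higher level. On day 42, 64.3% of the Krt6a UMIs of keratinocytes lay in cluster 5, which held 27.0% of the cells.

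By cluster, the highest Krt6a was in cluster 5 on every day, at 6218, 8538 and 7862 CPM, and its log2 ratios to day 0 were 0.46 and 0.34. In the dividing-like cluster 3 the values were 1211, 3805 and 2855 CPM, so day 7 was highest, with a log2 ratio of 1.64. In cluster 1 they were 349, 549 and 2269 CPM, so day 42 was highest, with a log2 ratio of 2.67 against day 0 and 2.03 against day 7. The share of cluster 1 cells with a Krt6a UMI after thinning was 18.3% (95% interval 14.8 to 22.2), 29.3% (95% interval 25.6 to 33.3) and 63.6% (95% interval 61.8 to 65.3) on days 0, 7 and 42, against a background median of 2.21, 12.4 and 14.8%. In the same cluster 1 cells, 9 of 10 genes of early response and dissociation stress (Fos, Jun, Egr1, Atf3 and others) were at least 2-fold higher on day 42 than on day 0, with a median log2 ratio of 1.68, where 2.94% of all genes of that cluster were. Krt14, Krt6b, Krt16 and Krt17 were also at least 2-fold higher in cluster 1 in that comparison. The Krt6b ratio there was 1.45, and 0.88 with background subtracted. The part of the early response genes in these differences was not tested. In cluster 17 Krt6a ran the other way, at 3029, 1543 and 1116 CPM, with -1.43 at day 42 against day 0. This call held under 8 of 10 alternatives. In thinned cells the mean was 2.21 Krt6a UMIs per 1000 on day 0 and 1.25 on day 42, less than 2-fold apart. In cluster 9 Krt6a was 27.0, 151 and 75.8 CPM, and in the sebaceous-like cluster 13 it was 11.8, 162 and 83.4 CPM. In CPM, both lay within or below the range of the background classes on each day. With background subtracted per cell, the cluster 9 ratios to day 0 were 2.59 at day 7 and -0.88 at day 42. In cluster 13 they were 3.62 and 0.

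Krt6b, the near copy of Krt6a, was found mainly in clusters 5, 12, 4 and, on days 7 and 42, 3. In all keratinocytes it stood at 166, 305 and 697 CPM, with log2 ratios of 0.84 (95% counting interval 0.79 to 0.89) and 2.00 (95% counting interval 1.96 to 2.05) against day 0. In cluster 5 it stood at 2425, 3168 and 1989 CPM, highest on day 7, with log2 ratios of 0.38 and -0.28. In the suprabasal-like cluster 4 it stood at 219.7, 418 and 299.5 CPM. In the dividing-like cluster 3 the values were 22.6, 301 and 101 CPM, a log2 ratio of 3.25 at day 7 and of -1.48 at day 42 against day 7. The higher Krt6b of all keratinocytes on day 42 was therefore not seen within cluster 5, which held 91.2% of the Krt6b UMIs of that library's keratinocytes. With the cluster mix held fixed, the ratio at day 42 against day 0 was -0.11. At day 42 against day 7 the ratio of all keratinocytes was 1.17. There it was -0.63 with the fixed mix, -0.04 with equal weight to each cluster and 0.81 in thinned cells. In clusters 1, 8, 9, 13 and 17 Krt6b was under 40 CPM on every day, and the background median was 2.54, 16.5 and 45.1 CPM. Of the 7 clusters at least 2-fold higher on day 42 than on day 0, 4 (8, 9, 13 and 17) had a difference in UMIs per cell no larger than that of the background, and in clusters 9, 13 and 17 the day 0 value rests on 3, 1 and 2 UMIs.

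Krt16, the type I partner of Krt6, had the largest ratio at day 7. In all keratinocytes it stood at 58.8, 418 and 294 CPM, a log2 ratio of 2.64 (95% counting interval 2.57 to 2.70) at day 7 and 2.15 (95% counting interval 2.07 to 2.22) at day 42 against day 0. The background median was 0.306, 21.9 and 40.3 CPM. On day 0, 10 cells held 48.6% of the 1998 Krt16 UMIs of all keratinocytes. Krt16 was at least 2-fold higher in 7 of 9 clusters on day 7 (1, 3, 4, 5, 8, 12 and 13) and lower in cluster 17. The cluster 17 ratio was -1.39, and -0.40 in thinned cells, under 2-fold. The day 7 call for all keratinocytes held under all 15 alternatives, at 1.55 to 3.33. The day 42 ratio was 0.21 with equal weight to each cluster.

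Among clusters, Krt16 was highest in cluster 5 on day 7. There it stood at 378, 2469.6 and 596 CPM, with log2 ratios of 2.68 at day 7 against day 0 and -2.03 from day 7 to day 42. In the dividing-like cluster 3 it stood at 49.7, 674 and 199.8 CPM, with 3.52 and -1.71. Clusters 3 and 5 thus peaked on day 7 and were lower on day 42. Cluster 1 did not: it stood at 20.3, 90.9 and 182 CPM and was highest on day 42. In the suprabasal-like cluster 4 the values were 32.2, 152 and 41.0 CPM. In CPM, clusters 8, 9 and 13 lay within or below the range of the background classes on days 7 and 42, as did cluster 13 on day 0 and cluster 4 on day 42. With background subtracted per cell, the ratio at day 7 against day 0 was 1.84 in cluster 8 and 1.05 in cluster 13. In cluster 13 it was -0.04 at day 42 against day 0. In cluster 17 the values were 759, 284 and 186 CPM, lower on both later days, but 10 cells held 91.3%, 86.9% and 100% of the cluster's Krt16 UMIs on the 3 days. After thinning, a Krt16 UMI was found in 4.46% (95% interval 2.33 to 7.66) of cluster 3 cells on day 0, 28.5% (95% interval 26.5 to 30.5) on day 7 and 11.1% (95% interval 9.19 to 13.2) on day 42. In cluster 5 the shares were 18.6, 56.2 and 26.5%, although 10 of its 87 cells held 79.4% of its Krt16 UMIs on day 0, and in the background classes the median was 0, 2.47 and 2.63%.

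Krt17 was at least 2-fold higher on day 7 than on day 0 in 4 of 9 clusters (3, 5, 9 and 12). In all keratinocytes it stood at 1196, 2291 and 823 CPM, with log2 ratios of 0.93 (95% counting interval 0.91 to 0.95) at day 7 against day 0 and -1.47 (95% counting interval -1.48 to -1.45) from day 7 to day 42. In the dividing-like cluster 3 the values were 656, 3788 and 891 CPM, and the log2 ratio at day 7 was 2.51. In cluster 5 they were 403, 2397 and 487 CPM, with 2.54. Both clusters returned on day 42 to within 0.44 of day 0 on the log2 scale. After thinning, 28.6% (95% interval 23.3 to 34.4), 75.4% (95% interval 73.4 to 77.3) and 32.8% (95% interval 29.8 to 35.8) of cluster 3 cells held a Krt17 UMI on the 3 days, against a background median of 2.90, 11.7 and 2.63%. Without cluster 3, the ratio of all keratinocytes at day 7 was -0.15, and at day 42 against day 7 it was -0.49, under 2-fold.

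The highest Krt17 lay elsewhere and followed another course. In cluster 17 it stood at 9482, 6833 and 4330.5 CPM, lower on each later day, and in cluster 8 at 3918, 4389 and 4133 CPM, nearly level. In cluster 1 it stood at 445, 383 and 1084 CPM, higher on day 42 alone, with a log2 ratio of 1.27 against day 0. In cluster 9 it was 32.3, 107 and 22.5 CPM, below the background median of 105, 160.2 and 57.6 CPM and the lowest of the 9 clusters on days 0 and 42. With background subtracted per cell, the cluster 9 ratio at day 7 against day 0 was 2.94, in place of 1.47. On day 0, clusters 8 and 17 held 59.3% and 25.4% of the Krt17 UMIs of keratinocytes. On day 7 cluster 3 held 71.9% of them.

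Marker levels differed between days as well. The 4 basal keratinocyte markers Trp63, Itga6, Itgb4 and Col17a1 summed to 1056, 963 and 1068 CPM over all keratinocytes. In cluster 3 the summed level of the 4 dividing markers was 2678, 1178 and 2171 CPM on days 0, 7 and 42, lowest on the day with most Krt17 and Krt16. In cluster 17 the 3 inner root sheath markers summed to 174, 6420.3 and 4879.5 CPM and the 5 outer root sheath and bulge markers to 2861, 1859 and 2984 CPM. In cluster 5 the mucosal markers Krt4 and Krt13 summed to 27653, 12292 and 10257 CPM. The 5 neutrophil markers summed to 23.3, 1559.7 and 187 CPM over all keratinocytes, highest on day 7, and none of the 5 was at 0 on any day. Of the 5, S100a8 and S100a9 can also be made by keratinocytes. Retnlg, a neutrophil gene, stood at 0.0294, 129.6 and 7.23 CPM in all keratinocytes, Csf3r at 0.0882, 4.42 and 2.62 CPM and Cxcr2 at 0.382, 3.66 and 1.29 CPM. By cluster, the neutrophil sum was 2.34, 933 and 109.7 CPM in cluster 3, 108, 1493 and 254 CPM in cluster 5 and 2.74, 2931 and 209.9 CPM in cluster 9. The 6 colonocyte markers summed to 274, 280.4 and 695 CPM and the 4 fibroblast markers to 91.7, 21.3 and 31.2 CPM, with none at 0. The part of these shifts in the member differences was not tested.

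**Figure D3:**
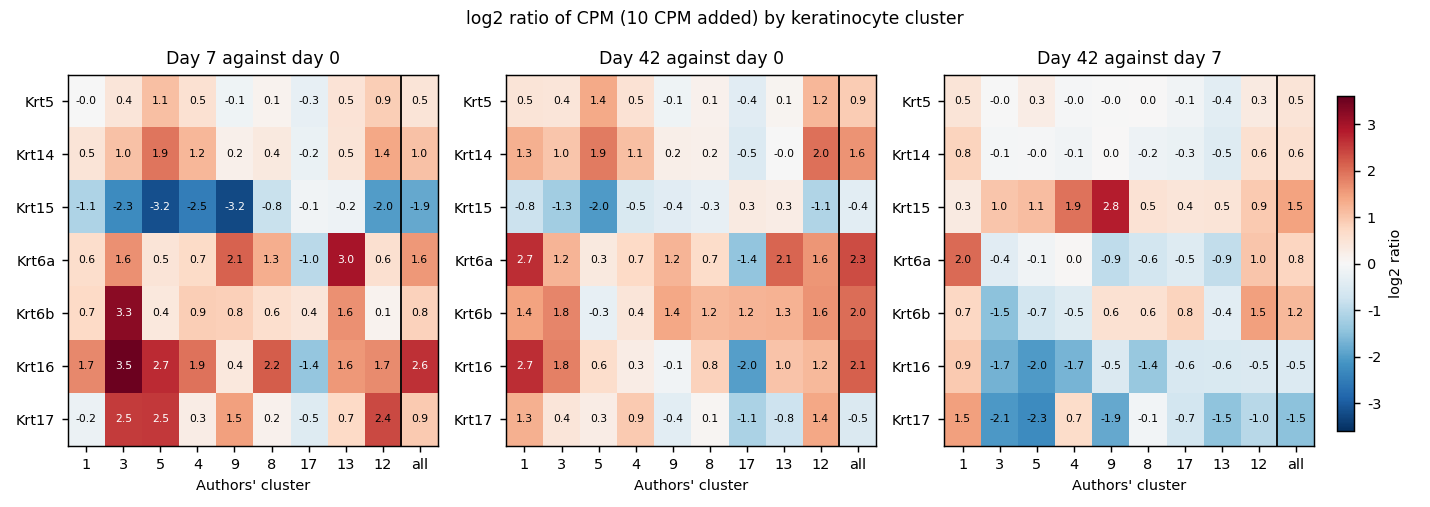
Log2 ratio of CPM, with 10 CPM added, for each member (rows) in each keratinocyte cluster and in all keratinocytes (columns, "all"), red for higher and blue for lower on the later day. Krt15 is blue across the day 7 against day 0 panel, Krt16 reaches 3.52 in cluster 3, and cluster 17 is blue for Krt6a, Krt16 and Krt17 at day 42 against day 0.

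Over all member by cluster values, 22 of 60 with at least 10 CPM on either day were at least 2-fold higher at day 7 against day 0, where 3.34% of all gene by cluster values were. In the same comparison 7 were at least 2-fold lower, against 1.65%. On day 42, 24 of 62 were higher than on day 0, against 2.94%, and 6 were lower, against 2.39%. Of the 24 higher values, 10 had a difference in UMIs per cell no larger than that of the background. They were 4 of Krt6b, 2 of Krt6a, 2 of Krt16, and 1 each of Krt5 and Krt14. From day 7 to day 42, 7 of 62 were higher and 9 lower, against 1.49% and 2.38%. Cluster 12, whose contents differ by day, gave 3 of the 22, 6 of the 24 and 2 of the 7 higher values. Leaving it out, the ratio of no member in all keratinocytes moved by more than 0.05 on the log2 scale.

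**Figure D4:**
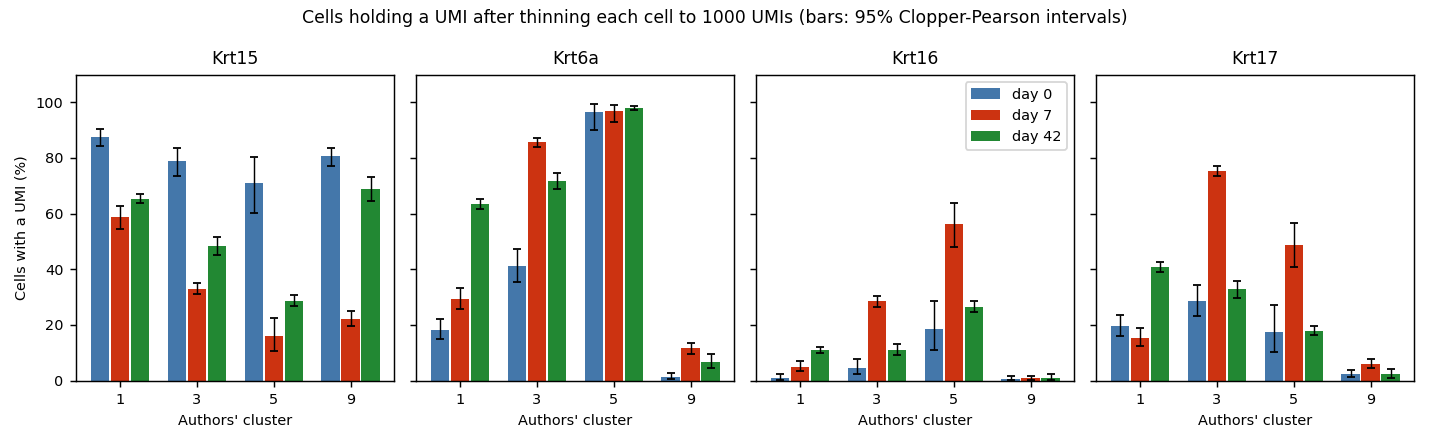
Share of cells with at least 1 UMI (%) for 4 members in clusters 1, 3, 5 and 9 after thinning each cell to 1000 UMIs, with day as colour and 95% Clopper-Pearson intervals as bars. Krt15 is lowest on day 7 in each of the 4 clusters, and Krt17 in cluster 3 reaches 75.4% on day 7.

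Whether the wound keratins shared cells was read in the larger clusters. In the thinned cells of cluster 3 on day 7, 32% (95% interval 29.8 to 34.3) of 1700 cells with a Krt6a UMI also held a Krt16 UMI, against 7.42% (95% interval 4.65 to 11.1) of 283 cells without. For Krt17 the shares were 80.8% (95% interval 78.8 to 82.6) with and 43.1% (95% interval 37.3 to 49.1) without a Krt6a UMI. Krt15 ran the other way, at 29.7% (95% interval 27.5 to 31.9) with and 53.0% (95% interval 47.0 to 58.9) without. On day 0, Krt17 was already found in 41.4% (95% interval 32.2 to 51.2) of cluster 3 cells with Krt6a and in 19.6% (95% interval 13.7 to 26.7) of those without. In the same library, cells of cluster 3 with and without Krt6a held Krt16 at 4.50% and 4.43%, and Krt15 at 77.5% and 79.7%, with overlapping intervals. On day 42 the values were 44.6% (95% interval 40.8 to 48.3) with and 58.0% (95% interval 51.9 to 63.9) without. In cluster 1 on day 42, Krt17 was found in 48.4% (95% interval 46.1 to 50.7) of cells with Krt6a and in 27.9% (95% interval 25.2 to 30.6) of cells without. In cluster 5 on day 42, 51.7% (95% interval 49.5 to 53.8) of 2109 cells with Krt6a held Krt6b, and of the 44 without 13.6% (95% interval 5.17 to 27.4) did. Krt17 there was found in 17.6% of cells with Krt6a and in 27.3% of those without, with overlapping 95% intervals. The cells of a library share their pool, so these intervals describe the cells of that library.

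Across the 27 profiles made by 9 clusters and 3 libraries, members were compared by profile. Pearson's r of log2(CPM + 10) was 0.88 for Krt5 and Krt14, 0.90 for Krt6a and Krt16 and 0.72 for Krt6a and Krt6b. For Krt17 with Krt6a and Krt16 it was 0.60 and 0.55, and with Krt6b 0.05. Krt15 with Krt5 gave 0.60 and with Krt14 0.29. The profiles share libraries, depth and background RNA, so r is a description. Among 11061 other genes, the profile nearest to Krt14 was that of Serpinb6a (r = 0.92), and the nearest to Krt5 was Ccnd1 (0.88), with Tspo and Lamb3 next (both 0.88). Nearest to Krt15 were Wwtr1 and Cib2 (both 0.81). Nearest to Krt6a was Leprotl1 (0.93), to Krt6b Rab11a and Fbp2 (both 0.95), to Krt16 Chn2 (0.90) and to Krt17 Noct (0.85). Of the 5 nearest genes, Spearman's rho kept 4 for Krt16 and Krt17, 1 for Krt6b and 2 for each other member.

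Lists of related genes were read in all keratinocytes, with the highest and lowest ratios named. Of 14 other keratins measured, 0 were at least 2-fold higher and 6 lower on day 7 than on day 0, where 1.38% and 1.17% of all genes were, and the median log2 ratio was -0.84. The lowest was Krt77, a keratin of sweat gland ducts and epidermis, at 162, 3.12 and 14.2 CPM on days 0, 7 and 42. On day 42, 4 of 15 were higher and 5 lower than on day 0, where 2.79% and 2.39% of all genes were. Krt7, a keratin of simple epithelia and ducts, had the highest ratio at 208, 339.6 and 1204 CPM. Against day 7, 5 of 15 were higher and 2 lower, where 2.09% and 1.72% of all genes were. Among them stood Krt20, a colonocyte marker, at 33.5, 14.5 and 181 CPM and Krt79 at 699, 445 and 99.4 CPM. Krt79 is a leading gene of cluster 8, which made up 23.6, 10.4 and 4.57% of keratinocytes. Within cluster 8, Krt79 and Cst6 summed to 28145, 27644 and 33693 CPM. Within cluster 5, 9 of 14 other keratins were at least 2-fold lower on day 7 than on day 0, where 2.99% of all genes were. The part of the cluster mix in the ratios of this list was not tested. The 9 genes that anchor keratin filaments at desmosomes and hemidesmosomes were each less than 2-fold different in each comparison, with median ratios of -0.40, -0.10 and 0.36. They ran from Plec, at 179, 169.9 and 272 CPM, to Dst, at 399.7, 213 and 285 CPM. Single clusters differed from this. In cluster 5, Evpl and Ppl were at least 2-fold below day 0 on both later days, where 2.99% and 2.44% of all genes were. Against day 0, Dst and Eppk1 were lower in cluster 3 on day 7, where 3.26% were. In cluster 1, Eppk1 was lower on day 7 and Dst on day 42, where 0.653% and 0.993% were. From day 7 to day 42, Eppk1 was higher in clusters 1 and 3, where 2.23% and 1.65% were.

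Of 15 measured genes known as activators of wound keratins, 4 were at least 2-fold higher on day 7 than on day 0 (Areg, Ereg, Fosl1 and Il1b) and 0 lower, where 1.38% and 1.17% of all genes were. On day 42 the same 4 and Hbegf were higher than on day 0 and 0 lower, where 2.79% and 2.39% of all genes were. Areg, a ligand of the epidermal growth factor receptor, stood at 42.6, 309 and 469.6 CPM in all keratinocytes. In cluster 3 it stood at 40.6, 607 and 373 CPM and in cluster 1 at 38.7, 175 and 474 CPM. In cluster 5, where Krt16 and Krt17 were highest on day 7, it was 489.7, 585 and 734 CPM, less than 2-fold different in each comparison. In cluster 9 it was 9.02, 10.8 and 13.3 CPM. The receptor gene Egfr had the lowest ratio of the list on both later days, at 61.7, 39.9 and 39.0 CPM. Il1b stood at 3.47, 82.9 and 21.8 CPM and is also made by neutrophils, whose markers were highest on the same day; their part in it was not tested. The median log2 ratio of the list was 0.03 at day 7 and 0.54 at day 42 against day 0.

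Of 11 measured wound edge genes, 6 were at least 2-fold higher and 1 lower on day 7 than on day 0, where 1.38% and 1.17% of all genes were, with a median log2 ratio of 1.18. The 6 were Lcn2, Ly6a, Plaur, S100a8, S100a9 and Tm4sf1. The highest, S100a8, stood at 4.21, 597 and 47.8 CPM, and the lowest was Sprr1a, a cornified envelope gene, at 682, 315 and 503 CPM. Both S100a8 and S100a9 are also among the neutrophil markers, which were highest on day 7. The part of neutrophil RNA in this count was not tested. On day 42, 6 were higher and 2 lower than on day 0, where 2.79% and 2.39% of all genes were, with a median of 1.43. Tm4sf1, a membrane protein gene, stood at 10.0, 51.2 and 299 CPM and Lcn2, which encodes an iron-scavenging secreted protein, at 86.9, 306 and 17.6 CPM. Of 6 proliferation genes, 0 were at least 2-fold different in all keratinocytes in any comparison. Within cluster 3, Mki67, Top2a and Ube2c were at least 2-fold lower on day 7 than on day 0, where 3.26% of all genes of that cluster were, and Mki67 and Ube2c were higher on day 42 than on day 7, where 1.65% were. Within cluster 5, Birc5 and Ube2c were higher on day 7 than on day 0, where 2.01% of all genes were. Of 10 early response and dissociation stress genes, 0 were higher on day 7 and 2 on day 42 than on day 0 (Dnajb1 and Junb), where 1.38% and 2.79% of all genes were, with 0 lower, and the median at day 42 was 0.69. The clusters differed from this. On day 7, 4 of 10 were higher than on day 0 in cluster 1, where 0.899% of all genes were, 2 in cluster 3, where 2.59% were, and 0 in clusters 5 and 9, where 2.01% and 0.862% were. On day 42, 6 of 10 were higher than on day 0 in cluster 3, where 1.62% of all genes were, with a median of 1.03. The part of these shifts in the differences of the keratins in cluster 3 was not tested.

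**Figure D5:**
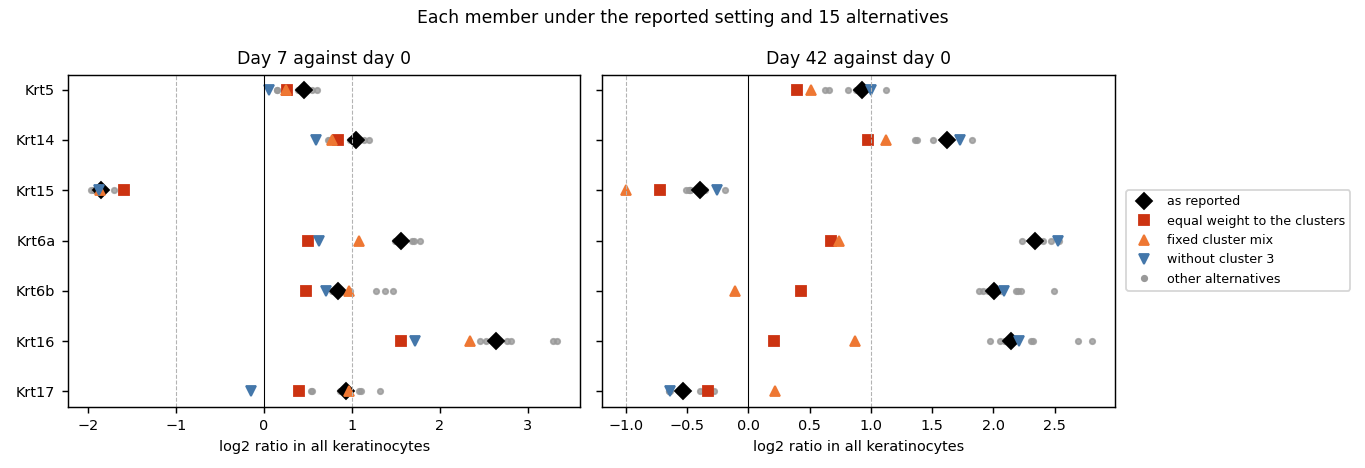
Log2 ratio of each member in all keratinocytes as reported (black diamonds) and under 15 alternative settings, of which 3 that reweight or drop clusters are coloured; dashed lines mark 2-fold. Krt15 at day 7 keeps its place under all settings, while Krt6b at day 42 runs from -0.11 to 2.49.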

How the data were processed

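Single-cell 3′ RNA-seq libraries from the pooled distal colon and anus of 5 mice per day were used for days 0, 7 and 42. The values the authors deposited were raw UMI counts as whole numbers, with a cell table with day, cluster number and cell type name. Cell Ranger 3.0.2 and mm10 are named in the submitters' processing notes. The deposited size factor column is a ratio: cell total divided by it was 5283 in every cell. Keratinocyte UMIs totalled 33996634, 128310378 and 58123386.

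UMIs were summed over the cells of a cluster and library and scaled to CPM. Ratios were taken where 1 of the libraries reached 10 CPM. UMI sums carry exact Poisson and shares exact Clopper-Pearson 95% intervals, for counting error alone. With 1 library per day no p-value was computed. The calculation was tested on simulated data. The members and lists were chosen with earlier results of these data known. Named genes were the members, the 5 genes nearest to each by r, and, per list, up to 4 genes with the highest and lowest ratios. The count for the basal layer list is not reported here. Clusters were named from fixed markers. Doublets were kept, since Scrublet's own threshold marked 0 cells on day 7. Alternatives were a pseudocount of 1 CPM, minimums of 100 CPM and none, a filter that kept cells with 1000 UMIs, 500 genes and no more than 20% mitochondrial counts, the 5% highest Scrublet scores left out, size factors, other totals, per-cell means, thinning to 1000 UMIs, the 10 highest cells left out, and other cluster sets or weights. A fixed cluster mix, leaving out cluster 12 and subtracting background were chosen after seeing the data. Transcripts and promoters came from GENCODE M21 and RefSeq. Scripts ran under Python 3.11.15 with scanpy 1.11.5, scipy 1.17.1, pandas 2.3.3 and numpy 2.4.6.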

Additional observations from a re-analysis of the deposited data

Results flagged for a closer look

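Over the 7 members and 3 comparisons of days, 6 cases had at least 1 cluster called higher and at least 1 lower. The share of all genes with such opposite calls is not given here, so whether 6 is many cannot be told. The highest and the lowest cluster of each case are given, and the difference between clusters was not tested, since each day is 1 library. Krt6a at day 42 against day 0 had a log2 ratio of 2.67 in cluster 1 and -1.43 in cluster 17. Krt16 at the same comparison had 2.66 in cluster 1 and -1.97 in cluster 17, and Krt17 had 1.40 in cluster 12 and -1.13 in cluster 17. At day 7 against day 0, Krt16 had 3.52 in cluster 3 and -1.39 in cluster 17. At day 42 against day 7, Krt17 had 1.48 in cluster 1 and -2.28 in cluster 5, and Krt6b had 1.49 in cluster 12 and -1.48 in cluster 3. Cluster 17 held 162, 236 and 63 cells, its inner root sheath markers summed to 174, 6420.3 and 4879.5 CPM on days 0, 7 and 42, and thinning moved its Krt16 value at day 7 to -0.40. Thinning also moved its Krt17 value at day 42 against day 0 to -0.58, under 2-fold. Its thinned means on days 0 and 42 were 2.21 and 1.25 Krt6a UMIs per 1000 and 0.361 and 0.175 Krt16 UMIs per 1000. Cluster 12 held 51, 1668 and 152 cells, its inner root sheath markers summed to 105004, 28.7 and 0 CPM, and its median mitochondrial share was 0.179, 5.00 and 0.225%, so its ratios may not compare like cells.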

How the results depend on the processing

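No paired analysis was possible because each day has 1 library, and for the same reason no library could be left out. Under 15 settings, 132 of 150 counts stayed within 1.5 times the reported one. For members at least 2-fold higher in all keratinocytes, the counts outside that range were as follows. At day 7 against day 0 they were 5 without the 10 highest cells, 1 with equal cluster weight and 1 without cluster 3, in place of 3. At day 42 against day 0 they were 0 with equal weight and 1 with the fixed mix, in place of 4, and at day 42 against day 7 they were 1 with per-cell means, 1 thinned, 0 with equal weight, 4 without cluster 3 and 0 with the fixed mix, in place of 2. Members lower were 1 (Krt15) with the fixed mix at day 42 against day 0, in place of 0, and 0 without cluster 3 and 2 with the fixed mix at day 42 against day 7, in place of 1. Member by cluster values at day 42 against day 0 were 15 higher when thinned and 14 with background subtracted, in place of 24, and 3 lower with per-cell means, in place of 6. At day 42 against day 7, 19 were lower without the 10 highest cells and 14 with background subtracted, in place of 9. Called values turned sign for Krt6b in all keratinocytes: at day 42 against day 0 to -0.11 with the fixed mix, and at day 42 against day 7 to -0.044 with equal weight and -0.63 with the fixed mix. By cluster at day 42 against day 0, subtracting background gave -0.0022 for Krt6b in cluster 8, -0.88 for Krt6a in cluster 9, -0.042 for Krt16 in cluster 13 and -0.029 for Krt6b in cluster 17, where thinning gave -0.71. The cause of these shifts was not tested. Size factors moved the median of all genes by 0.10, 0.15 and 0.04 on the log2 scale. Of 75 called cluster values, 60 kept their call with per-cell means, 64 with background subtracted, 67 without the 10 highest cells and 73 with size factors; of 64 that could be thinned, 53 did. Of all genes, 3.21% were at least 2-fold higher at day 7 with a 100 CPM minimum and 0.374% with none. Krt6b and Krt16 in clusters 9, 13 and 17 rest on few UMIs or few cells. There the Krt6b of a day 0 cluster is at most 3 UMIs, and 10 cells hold all Krt16 UMIs of day 42.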

Other observations

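The colonocyte class labelled EEC held member transcripts on day 7. Krt14 stood at 4889 CPM and Krt6a at 2149 CPM, in 12 cells. The same class on day 0, with 78 cells, held 128 and 73.8 CPM.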
